A study of Arabidopsis thaliana with 53 samples.

Results

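The PYR/PYL proteins are the intracellular receptors of abscisic acid (ABA), the drought hormone of plants. ABA-bound receptors hold clade A protein phosphatases 2C (PP2Cs) inactive, which frees SnRK2 kinases to phosphorylate ABF transcription factors and, in guard cells, the ion channels that close stomata. The family falls into dimeric receptors (subfamily III, PYR1 and PYL1 to PYL3) and mostly monomeric ones (subfamily II, PYL4 to PYL6, and subfamily I, PYL7 to PYL10). Chromatin accessibility at 10 receptor genes of Arabidopsis thaliana is described here. They are PYR1 (AT4G17870), PYL1 (AT5G46790), PYL2 (AT2G26040), PYL3 (AT1G73000), PYL4 (AT2G38310), PYL5 (AT5G05440), PYL6 (AT2G40330), PYL7 (AT4G01026), PYL8 (AT5G53160) and PYL9 (AT1G01360). These are 10 of the 27444 protein-coding genes on the 5 chromosomes of the gene table used, and they were chosen by name and not by a measured value. All open-chromatin peaks were taken whose summit lay inside one of these genes or within 1500 bp of either end.

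The assay was ATAC-seq, where Tn5 transposase cuts and tags open DNA, and it was run on 53 samples of Col-0 plants that form 18 groups. Wild-type (WT) groups were whole seedlings (control and ABA for 4 h), seedling roots (control and ABA for 45 min, 2 h and 4 h), mesophyll (control and ABA for 4 h) and guard cells. Guard cells were taken as control, after ABA for 4 h and for 24 h, and after 4 h of 100 ppm or 1000 ppm CO2. The abf1/2/3/4 quadruple mutant, which carries mutations in the 4 genes named, was sampled in root (control, ABA for 45 min and for 2 h) and in guard cells (control and ABA for 4 h). In the mutant root group called 2 h, the titles say 2 h and the treatment time field says 4 h. ABA was given at 50 µM, on plates to seedlings and as a spray to the rosettes of mature plants, with an ethanol vehicle as the control. The single control of each tissue and genotype has a treatment time of 4 h, so the 45 min, 2 h and 24 h samples have no control of their own time. Nuclei of cell types were sorted by FACS from plants that carry a nuclear H2B-EGFP marker, whose promoters the sources used here do not name. Of the groups, 3 had 2 samples, 13 had 3 and 2 had 4.

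The deposited files hold 1 pooled peak list per group. They hold no value per sample, so no difference below could be set against a spread between replicates. No difference was tested, and the depth is unknown. Each group is therefore represented by 1 list, and verbs such as "ranked lower" state the order of 2 values and nothing more. Lists held from 15345 to 27514 peaks. To compare them, each peak was ranked within its list by the −log10 p that the authors' peak caller gave it. The rank percent is that rank as a percentage of the peaks of the list, so that a low value marks a strong peak. A receptor's value in a list is that of its best peak. Because each list is a bulk profile, fewer nuclei with an open site and a less open site in each nucleus cannot be told apart.

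The guard cell lists held peaks at the genes that define this cell type. All 8 guard cell markers had a peak in each of the 7 guard cell lists, and between 2 and 5 of the 8 in any other list. HT1 and SLAC1, a kinase and an anion channel of stomatal control, and TGG1 had a peak in no list of another tissue. Of 6 root markers, 4 or 5 had a peak in each root list against 1 to 4 in the lists of other tissues. These ranges touch, so the root markers did not separate root either. PLT1 and WER each lacked a peak in 6 of the 7 root lists. WER had one in the mesophyll control and in WT guard cells at 4 h of ABA. The 3 mesophyll markers all had a peak in both mesophyll lists, but also in some lists of other tissues, so they did not separate that tissue. In the mutant, 3 of the 4 ABF genes had a peak in the root lists (ABF4 had none) and 4 of 4 in the guard cell lists. A peak at these loci does not check the mutations.

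The receptor genes were among the well-marked genes of the untreated lists. In the guard cell control list all 10 had a peak, against 71.5% of all genes, and the median of their best rank percent was 14.9 against 36.9 for all genes with a peak. In the root control all 10 had a peak, against 73.9% of genes, with a median of 19.2 against 32.0. In the seedling control all 10 had one, against 59.0% of genes, with a median of 29.9 against 38.6. In the mesophyll control 8 of 10 had one, against 57.1% of genes, with a median of 34.8 against 40.1, and PYL1 and PYL9 had none. In the 2 CO2 lists and the mutant guard cell control all 10 had one, where 67.6% (100 ppm), 69.1% (1000 ppm) and 69.1% (mutant) of genes did, and in the mutant root control all 10 did, where 64.8% of genes did.

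With ABA, the receptors with a peak were 10 in seedling, where 59.5% of genes had one, and 10 in WT root at 45 min, 2 h and 4 h, where 64.8%, 75.5% and 75.8% did. They were 9 in WT guard cells at 4 h and at 24 h, where 65.8% and 68.1% of genes had one, 8 in mutant guard cells, where 68.4% did, and 7 in mesophyll, where 55.2% did. In mutant roots they were 9 at 45 min and at 2 h, where 62.2% and 61.3% of genes had one. PYL1 was lacking in each list with fewer than 10. The median rank percent of the receptors with ABA was 52.8 in seedling, 53.8 in mesophyll and 30.7 in guard cells at 4 h, where the medians of all genes were 38.9, 40.8 and 38.7. In guard cells at 24 h it was 30.8 against 38.1. In WT root at 45 min, 2 h and 4 h it was 38.9, 29.9 and 33.2, close to the 36.3, 30.9 and 32.9 of all genes. In mutant roots it was 38.9 and 34.5 against 38.5 and 37.8, and in mutant guard cells 25.8 against 37.8.

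Over the 18 lists, 370 peaks were assigned to the receptors, and overlapping peaks of different lists were joined into 26 sites. Of these peaks 29.5% had their summit inside the receptor gene, and 68.9% lay nearer to the receptor than to any other protein-coding gene. Another gene's window held the summit of 46.5% of them. Their widths ran from 126 to 2611 bp with a median of 452 bp, and 14.3% were wider than 1000 bp, against 7.52% of all peaks. At the edge of the window, a PYL6 peak of the root list at 4 h of ABA, with its summit 1497 bp from the gene, was counted. A PYL5 peak of the mutant guard cell control, with its summit 1508 bp away and a rank percent of 98.4, was not. Peaks were found in all 18 lists for 7 of the 10 receptors, whereas 41.3% of all genes had one in all lists. The exceptions were PYL1 (11 lists), PYL6 (16) and PYL9 (16).

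**Figure D1:**
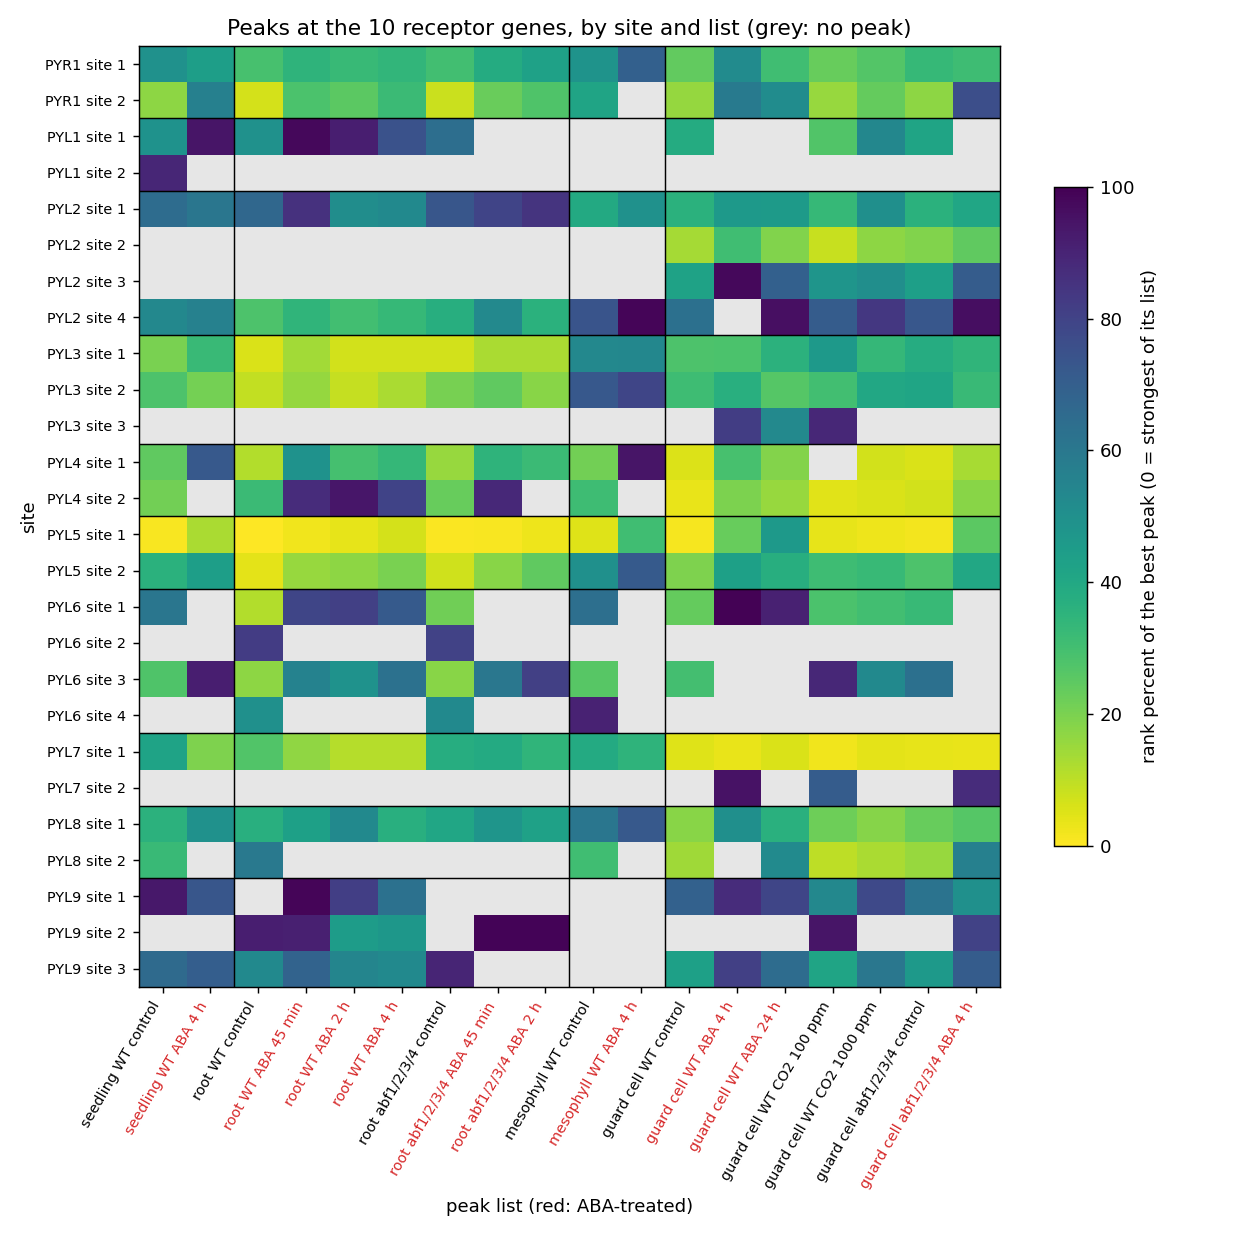
Rank percent of the best peak at each of the 26 sites (rows, grouped by receptor) in each of the 18 peak lists (columns, ABA-treated lists in red). Yellow marks the strongest peaks of a list, dark colours the weakest and grey the absence of a peak. PYL2 sites 2 and 3 are filled in the 7 guard cell columns alone, and PYL6 sites 2 and 4 in no red column.

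Of the 26 sites, 8 had a peak in all 18 lists. They lay at PYR1, PYL2, PYL3 (2 sites), PYL5 (2 sites), PYL7 and PYL8. Across the genome 23.6% of 33886 sites joined in the same way had a peak in all lists. Both receptor sites with a peak in every guard cell list and in no other list belonged to PYL2, and 1.71% of all sites had that pattern. A peak in no ABA list was seen at 3 receptor sites, against 7.35% of all sites. None of the 26 receptor sites was found in ABA lists only, a pattern of 13.0% of all sites. The 3 sites without ABA were sites 2 and 4 of PYL6 and a weak second site of PYL1 that 1 list alone held.

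In subfamily III, PYL2 had the clearest cell-type pattern. PYL2 is known as a receptor that can carry the ABA response of guard cells. Its site 2 (chr2:11093736-11094718, coordinates in TAIR10, the build named in the submitters' processing notes) had its summit at a median of −241 bp from the lower-coordinate end of the gene, where a minus sign means outside it. The site carried a peak of 750 to 983 bp in all 7 guard cell lists and none in the 11 others. Its rank percent was 13.5 in the control, 8.38 at 100 ppm CO2, 17.1 at 1000 ppm CO2 and 18.9 in the mutant control. With ABA it was 30.7 at 4 h, 19.1 at 24 h and 24.4 in the mutant, so the 3 ABA lists held the 3 highest values. The lowest of them, at 24 h, lay just above the mutant control.

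Site 3 of PYL2 (chr2:11095322-11095675), near the upper-coordinate end of the gene, was also found in the guard cell lists alone. It was weaker, with a rank percent of 42.5 in the control, 47.8 and 50.6 at 100 and 1000 ppm CO2 and 43.7 in the mutant control. With ABA it was 98.0 at 4 h, 69.4 at 24 h and 70.8 in the mutant, all above the 4 lists without ABA. At 4 h the peak was thus among the weakest of its list. The outer PYL2 sites were shared between tissues. Site 1 (chr2:11092896-11093511) had a peak in all 18 lists but its summit lay nearer to the neighbour AT2G26030 in every one. Site 4 (chr2:11096022-11096538) was strongest in root, at 27.9 in the control, and had a peak in 17 lists, with none in the WT guard cell list at 4 h of ABA.

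PYR1, the receptor found through its response to the synthetic agonist pyrabactin, had a narrow site at its lower-coordinate end in all 18 lists (chr4:9928418-9928856). A second, wider site ran across and past its upper-coordinate end (chr4:9929308-9932005) in 17 lists, and was absent from the ABA-treated mesophyll list. The best rank percent of PYR1 was 6.50 in the root control, 15.7 in the guard cell control, 17.0 in the seedling control and 41.7 in the mesophyll control. The root control thus held its strongest peak and the mesophyll control its weakest among these.

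PYL3, a further dimeric receptor, was the root-biased member of the subfamily. Its best rank percent in the 7 root lists ran from 5.83 to 14.0 with a median of 6.98. In the 7 guard cell lists it ran from 26.3 to 38.1 with a median of 30.3, and in the 2 mesophyll lists it was 53.4 and 53.8. The root, guard cell and mesophyll values did not overlap. The site with its strongest peaks (chr1:27462272-27463408) lay between PYL3 and BGAL17, a gene named for a beta-galactosidase, and was nearer to BGAL17 in 18 of its 19 peaks. Site 2 (chr1:27463532-27463998), with its summit inside PYL3 in all 18 lists, had the same order, at 8.99 in the root control, 31.1 in the guard cell control and 72.5 in the mesophyll control.

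PYL1, the closest relative of PYR1, was the receptor most often without a peak. Its main site (chr5:18981882-18983325), with its summits at a median of −857 bp from the lower-coordinate end, had a rank percent of 38.7 in the guard cell control, 49.1 in the seedling control and 49.5 in the root control. Mesophyll had no peak there in either list.

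**Figure D2:**
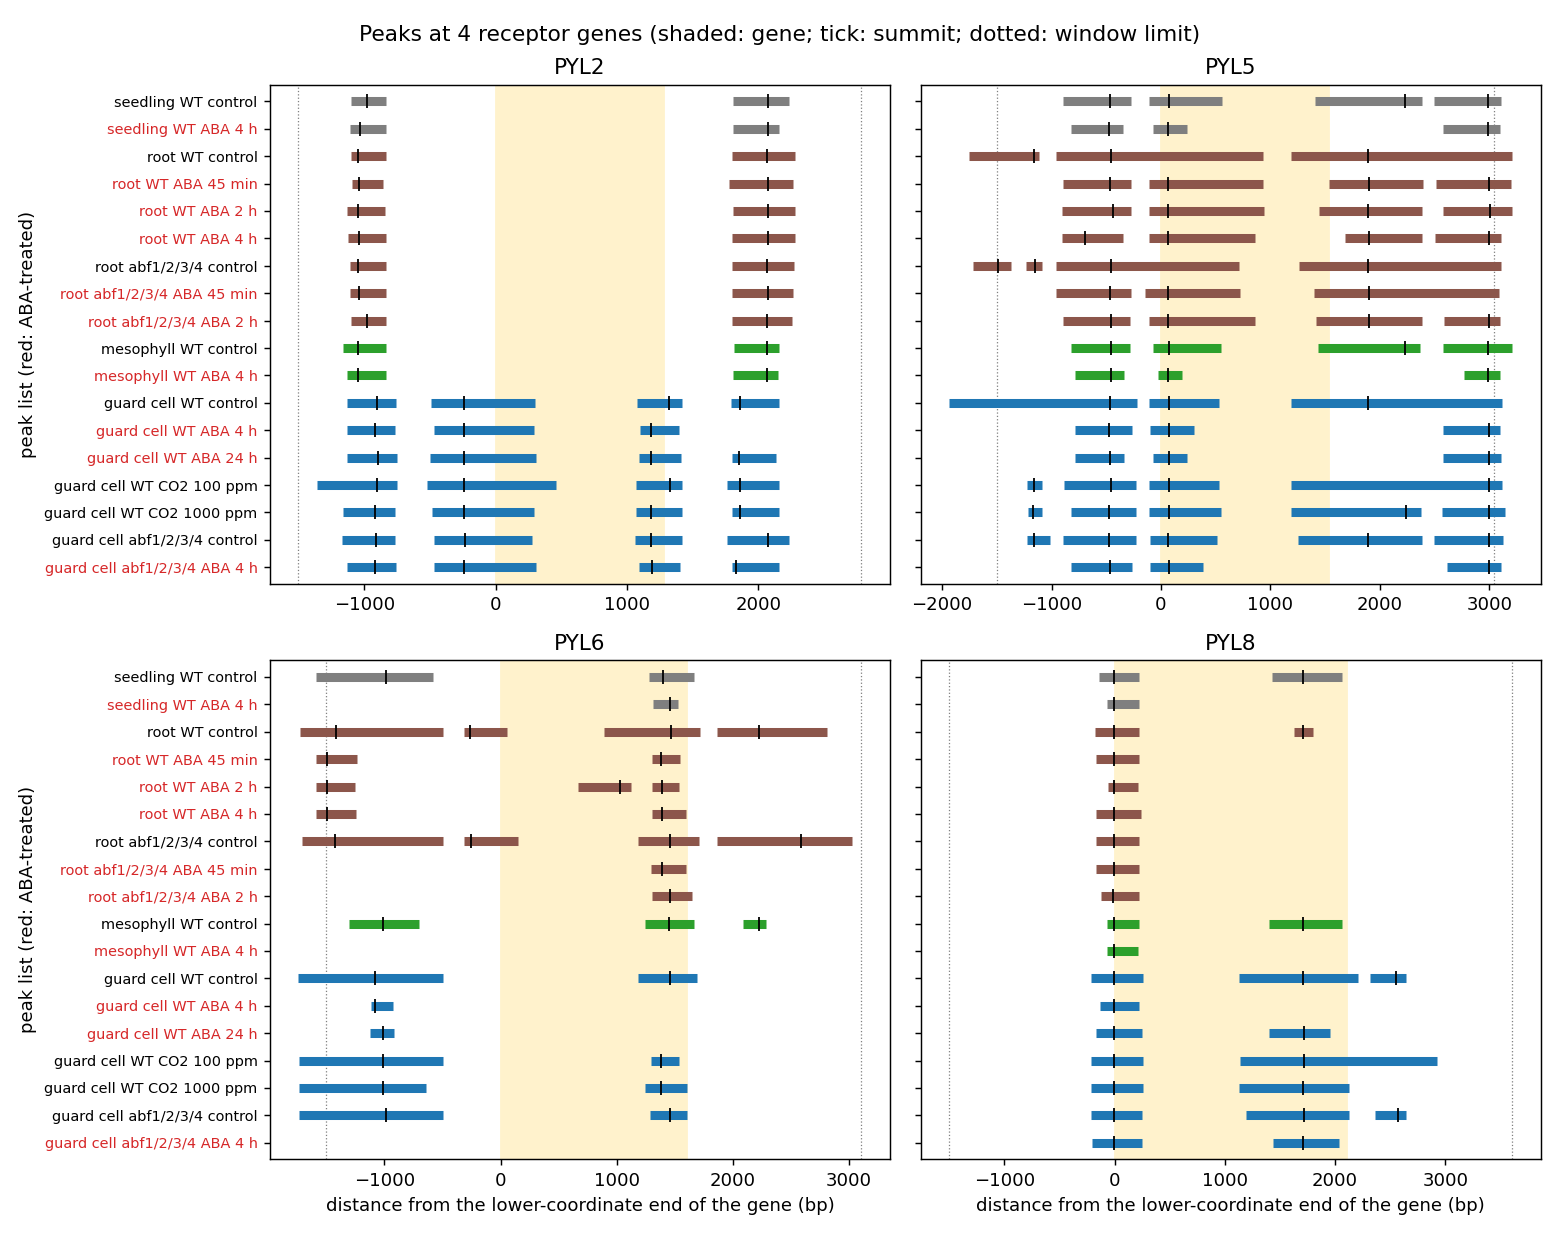
Peaks assigned to PYL2, PYL5, PYL6 and PYL8 in each of the 18 lists (rows, ABA-treated in red), as bars by distance in bp from the lower-coordinate end of the gene. The gene is shaded, summits are ticks, dotted lines are 1500 bp beyond the gene ends, and bars are grey for seedling, brown for root, green for mesophyll and blue for guard cell. PYL2 shows a pair of blue-only sites, and PYL5, PYL6 and PYL8 show fewer or shorter bars in most red rows.

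Subfamily II held the strongest receptor peaks. PYL5, a monomeric receptor, had the best rank of the 10 receptors in 14 of the 18 lists, and PYL7 in the other 4. In the lists without ABA its rank percent ran from 0.338 to 4.70 with a median of 1.57. It was 0.338 in the root control, 0.801 in the seedling control, 1.35 in the guard cell control and 4.70 in the mesophyll control. In the root control its peak (site 1, chr5:1607054-1609925) was 1900 bp wide with a −log10 p of 27.1.

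PYL4, which with PYL5 is known for a role in stomatal closure at high CO2, was a guard cell-biased member. Its rank percent was 3.45 in the guard cell control against 11.5 in root, 21.2 in seedling and 21.5 in mesophyll. A wide site beyond its upper-coordinate end (chr2:16050902-16053445) carried that peak, which was 2368 bp wide in the guard cell control. PYL6, the other member, had its best peaks in root, at 11.5 in the control against 23.8 in guard cell, 26.1 in mesophyll and 27.5 in seedling. The root and guard cell values came from site 1 (chr2:16842847-16844095). All 13 peaks of that site lay in the window of the neighbour TBL33, and 8 of them were nearest to PYL6. Site 3, inside the gene, had 17.0 in the root control and 30.0 in the guard cell control. Peaks of PYL6 covered 3147 bp of its window in the WT root control and 3163 bp in the mutant root control, against 1224 to 1510 bp in the 6 other lists without ABA. Root was the only tissue with a peak at its site 2 (chr2:16844270-16844740), in both control lists.

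In subfamily I, PYL7 stood out in guard cells. Its rank percent ran from 2.24 to 5.83 in the 7 guard cell lists and from 11.1 to 41.9 in the 11 others, with no overlap. The peak (site 1, chr4:446468-447337) had its summit at a median of −96 bp from the lower-coordinate end of PYL7, but it was never nearest to PYL7 and lay in the windows of AT4G01023 and AT4G01030 in all 18 lists. The files cannot say to which of these 3 genes the peak belongs.

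PYL8, known for its role in lateral root growth under ABA, had a narrow site across its lower-coordinate end (chr5:21560386-21560859) in all 18 lists. A second site near its upper-coordinate end (chr5:21561732-21563529) was found in 9 lists. The rank percent of this second site was 14.1 in the guard cell control, 30.6 in the mesophyll control, 32.3 in the seedling control and 59.6 in the WT root control. Guard cells therefore had the strongest and root the weakest peak at this site among the WT controls. The order differs for peaks that overlap the PYL8 window wherever their summit lies, the best of which had 6.05 in the root control, 10.9 in guard cell, 15.9 in seedling and 30.6 in mesophyll. PYL9, known for promoting leaf senescence under drought, had only weak peaks, with a rank percent of 43.1 in the guard cell control, 52.4 in the root control and 65.2 in the seedling control. Sites 1 and 3 of PYL9 were never nearest to PYL9, and site 3 (chr1:143369-143603) lay nearer to HTR12, the gene of the centromeric histone H3.

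In every tissue the peaks of the ABA-treated list covered fewer bases at the receptor genes than those of the control. The bases of the 10 gene windows that lay under peaks numbered 12179 in the seedling control and 5710 after ABA, a change of −53.1%, while the peaks of the whole list covered 3.23% more. In mesophyll they numbered 9410 and 3452, a change of −63.3% against −0.045% for the whole list. In guard cells they numbered 18123 in the control, 10875 at 4 h and 11469 at 24 h of ABA. These changes of −40.0% and −36.7% stood against −10.2% and −8.10% for the whole lists.

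In WT root the receptor windows held 16942 covered bases in the control and 10194, 11240 and 11990 at 45 min, 2 h and 4 h of ABA. The changes were −39.8%, −33.7% and −29.2%, against −23.4%, 11.4% and 0.290% for the whole lists. At 2 h the ABA list was therefore the longer one, and the receptor windows still held less. The 3 root time points share 1 control list and so do the 2 guard cell times, so these comparisons are not independent of each other. Lists differed in length, most of all in root (25753 peaks in the control and 19885 at 45 min). Within 500 bp of the genes the change in WT root at 2 h was −20.9%. With the 15000 strongest peaks of every list, an alternative added after seeing the data, the change in covered bases kept its sign and stayed within 1.5 times the reported value in each of the 10 ABA comparisons.

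**Figure D3:**
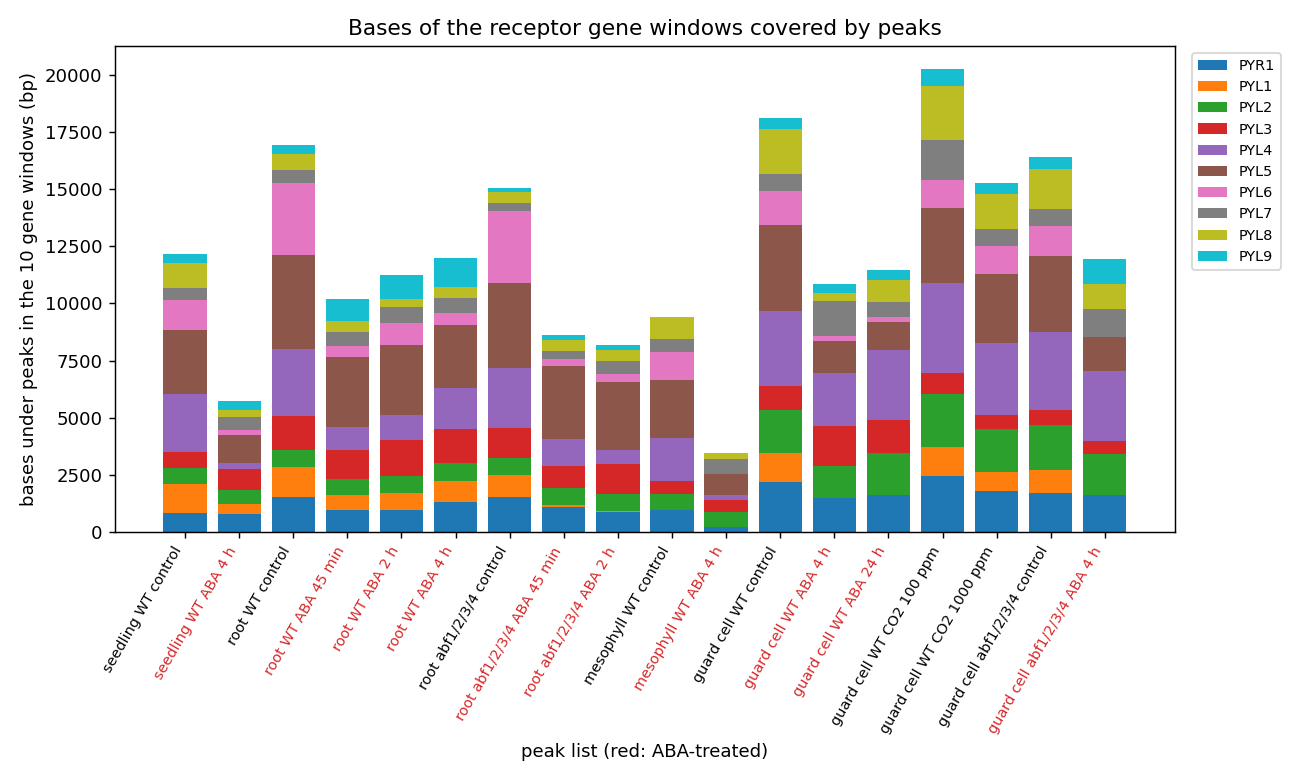
Bases under peaks (bp) in the windows of the 10 receptor genes, stacked by receptor, for each of the 18 peak lists (ABA-treated in red). Every red bar is shorter than the control bar of its tissue and genotype, from 3452 against 9410 bp in mesophyll to 11957 against 16407 bp in mutant guard cells.

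Counted by gene, the receptors with fewer covered bases in the ABA list were 8 of 10 in seedling, where 50.5% of all genes with a peak in either list had fewer. They were 8, 6 and 6 of 10 in WT root at 45 min, 2 h and 4 h, where 86.0%, 37.5% and 47.8% of genes had fewer. In mesophyll they were 7, where 55.0% of genes had fewer, and in guard cells 8 at 4 h and 9 at 24 h, where 69.0% and 67.0% had fewer. A window with at most 50% of its control coverage is a larger difference. It was found for 5 receptors in seedling, 5 in mesophyll and 4 in guard cells at either time, where 6.88%, 11.8%, 16.5% and 12.3% of genes had one. In WT root it was found for 3, 3 and 1 receptors, where 23.9%, 4.76% and 9.37% of genes had one, so the shares at 45 min and 4 h were close to those of all genes.

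A lost peak is a control peak that shares no base with the ABA list, and a gained peak is the reverse. In seedling, 5 receptors had a lost and 1 a gained peak, where 7.14% and 8.65% of all genes did. In mesophyll 5 had a lost and 0 a gained peak, where 10.2% and 7.13% of genes did. In guard cells 4 had a lost and 2 a gained peak at 4 h, where 20.7% and 6.79% of genes did, and 3 and 1 at 24 h, where 15.3% and 6.02% did. In WT root 4, 3 and 3 receptors had a lost peak at 45 min, 2 h and 4 h, where 30.0%, 9.58% and 17.8% of genes did. There 1, 2 and 2 had a gained peak, where 1.49%, 19.3% and 17.0% of genes did. These counts rest on the rule for a peak. The shares of all genes are those of the 1500 bp window with all peaks, and none is given for the alternatives here or below. With a window of 500 bp the lost count was 1 in seedling, 3 in mesophyll, and 2 in guard cells at 4 h and in WT root at 45 min. With a window of 3000 bp it was 5 in WT root at 4 h. Among the 5000 highest-ranked peaks it was 1 in seedling and in guard cells at 4 h, 3 in mesophyll, and 0 in guard cells at 24 h and in WT root at each time.

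Ranks were compared next. Among receptors with a peak in both lists, 6 of 10 ranked lower by at least 10 points of rank percent in the ABA list of seedling, where 14.9% of genes did. In mesophyll 5 of 7 did, where 21.6% of genes did, and in guard cells 7 of 9 at 4 h and 6 of 9 at 24 h, where 34.4% and 23.2% did. In WT root 5, 5 and 4 of 10 did at 45 min, 2 h and 4 h, where 41.4%, 7.89% and 14.4% of genes did. PYL7 was the receptor that ranked higher by at least 10 points, in seedling, where 14.8% of genes did, and in WT root at 45 min, 2 h and 4 h, where 1.99%, 16.4% and 16.5% did. In mesophyll and in guard cells at 4 h and 24 h, 0 receptors did, where 11.8%, 11.5% and 9.11% of genes did. The median shift of the receptors in points of rank percent was 14.4 in seedling and 25.9 in mesophyll, against 0.19 and 1.89 over all genes. In guard cells it was 21.9 at 4 h and 15.1 at 24 h, against 4.86 and 2.44. In WT root it was 12.1, 9.48 and 5.60, against 7.61, −0.80 and −0.20.

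**Figure D4:**
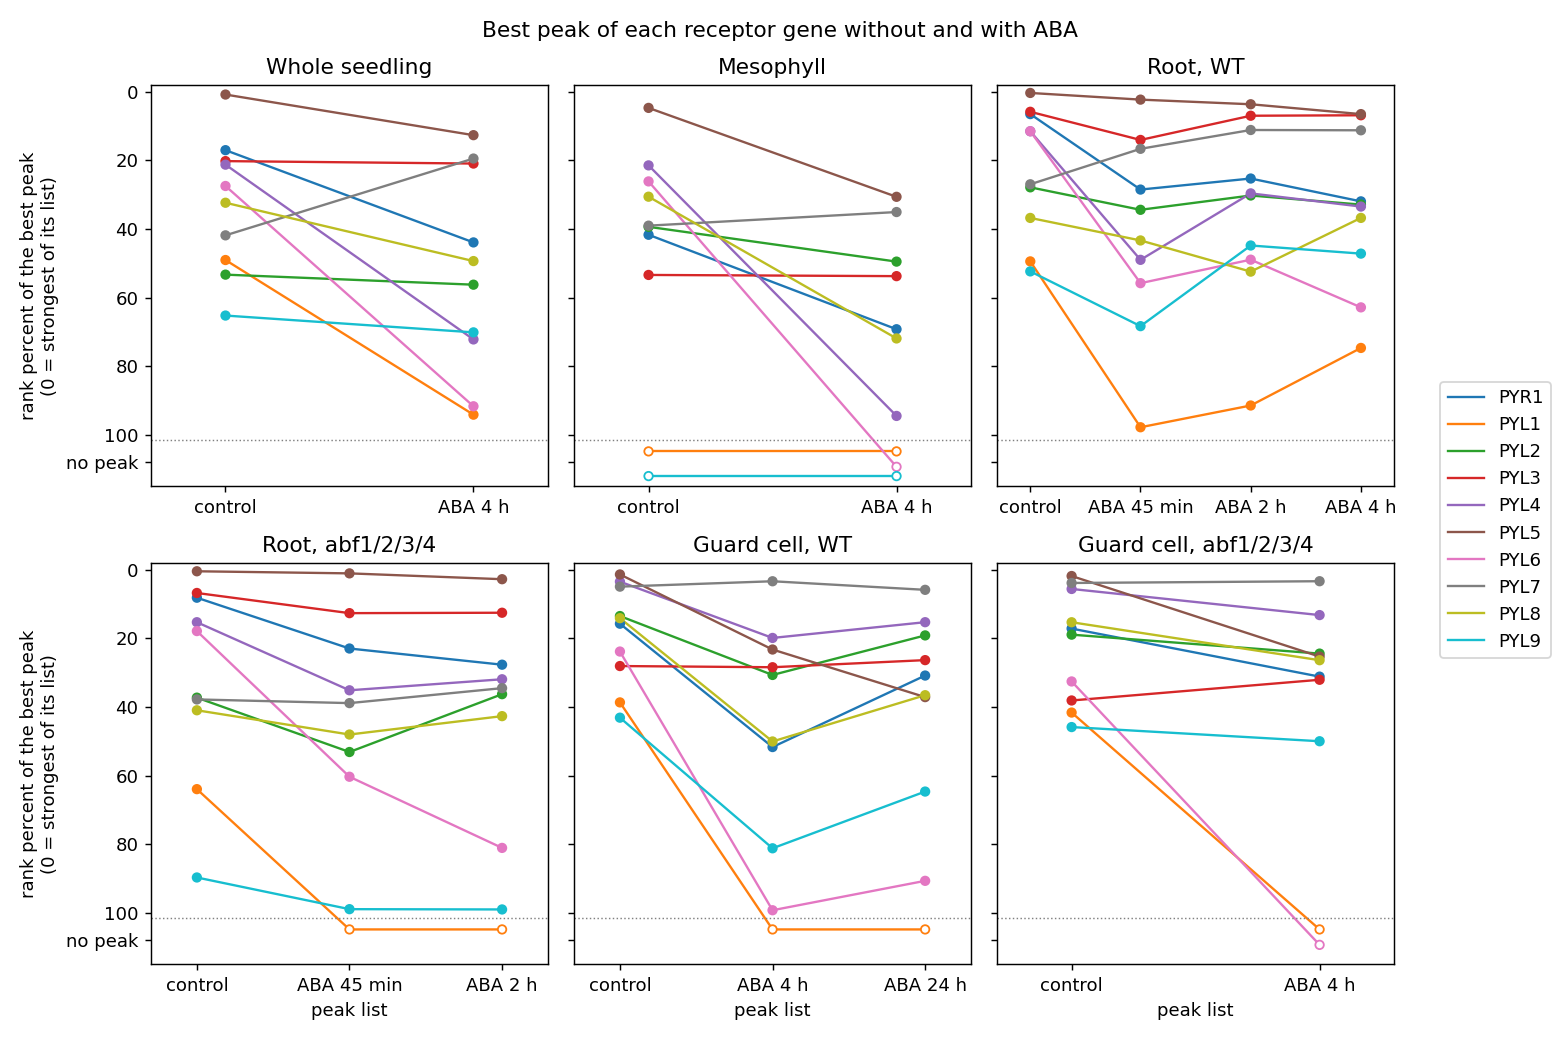
Rank percent of the best peak of each receptor gene (0, at the top, is the strongest peak of a list) in the control and ABA lists of each tissue and genotype. Open circles below the dotted line mark lists with no peak at that receptor. PYL5 goes from 1.35 to 23.2 and 37.1 in WT guard cells, PYL6 drops in each panel, and PYL7 is nearer to the top with ABA in seedling and WT root.

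In subfamily II, PYL5 ranked lower with ABA in all 10 comparisons, by 0.61 to 35.8 points. In guard cells the best rank percent of PYL5 was 1.35 in the control, 23.2 at 4 h and 37.1 at 24 h of ABA. In mesophyll it was 4.70 and 30.6, and in seedling 0.801 and 12.6. In WT root, by contrast, it was 0.338 in the control and 2.28, 3.63 and 6.51 at 45 min, 2 h and 4 h, so PYL5 stayed first among the receptors there. Of all genes with a peak in both lists, 1.95% ranked lower by as much as PYL5 in guard cells at 24 h, and 75.9% did in root at 45 min. Ranked among the genes with a peak in all lists, which removes the difference in list length, these shares were 0.17% and 28.1%. The best peak of its site 1 was 1715 bp wide in the guard cell control and 405 and 306 bp at 4 h and 24 h of ABA. At 24 h that peak had a rank percent of 46.1, and the value of 37.1 came from site 2 beyond the other end of the gene (chr5:1610174-1612198). All 26 peaks of site 2 lay in the window of the neighbour AT5G05450, and 9 of them were nearest to PYL5.

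PYL6 lost a control peak in all 10 ABA comparisons, those of the mutant included, when all peaks were used. Among the 5000 highest-ranked peaks no receptor had a lost peak in 5 of these comparisons (WT root at each time, guard cells at 24 h and mutant guard cells). Its rank percent was 27.5 in the seedling control and 91.7 with ABA. In guard cells it was 23.8 in the control, 99.3 at 4 h and 90.7 at 24 h, all from site 1, which TBL33 shares. The site 3 peak inside the gene (chr2:16845250-16846301), at 30.0 in the control, was absent from both ABA lists. In WT root the best rank percent was 11.5 in the control and 55.8, 48.9 and 62.9 at 45 min, 2 h and 4 h. The control value came from site 1 and the ABA values from site 3, which had 17.0 in the control. Mesophyll had a PYL6 peak at 26.1 in the control and none with ABA. Every ABA value of PYL6 thus lay above every value without ABA, which ran from 11.5 to 32.5. Of all genes with a peak in both lists, 0.05% ranked lower by as much as PYL6 in seedling, 0.06% in guard cells at 4 h and 0.34% in root at 4 h.

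PYL4 ranked lower with ABA in all 10 comparisons. In mesophyll its rank percent was 21.5 in the control and 94.5 with ABA, and in seedling 21.2 and 72.2. In WT root it was 11.5 in the control and 49.0, 29.6 and 33.5 at 45 min, 2 h and 4 h. In guard cells it was 3.45 in the control, 19.9 at 4 h and 15.3 at 24 h, and in both ABA lists PYL4 ranked behind PYL7 alone among the receptors. At 24 h a peak that overlaps the PYL4 window without having its summit there ranked higher still, at 5.31. Its wide upper-end peak was absent from the ABA lists of mesophyll and seedling, and in WT root it was 2384 bp wide in the control and 426, 232 and 445 bp wide at 45 min, 2 h and 4 h. At 4 h that site held 2 peaks, and the width is that of the better-ranked one. The whole PYL4 window held 2922 covered bases in the root control and 1028, 1103 and 1793 at these times.

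In subfamily III, PYR1 ranked lower by its best peak in all 10 comparisons, by 14.0 to 36.0 points. The best peak was not always at the same site. In guard cells its rank percent was 15.7 in the control, from the upper-end site. It was 51.7 at 4 h and 30.8 at 24 h, from the lower-end site. The upper-end site had 59.0 and 51.5 at these times, and the lower-end site had 24.2 in the control. In seedling (49.6 and 43.9) and mutant guard cells (32.9 and 31.1) alone, the lower-end site ranked higher with ABA. In WT root the best rank percent of PYR1 was 6.50 in the control and 28.5, 25.3 and 31.9 at 45 min, 2 h and 4 h. These root values came from the wide upper-end site, while the site at the lower end moved less, from 29.0 in the control to 35.0, 32.5 and 34.2. PYL1 had no peak in any ABA-treated guard cell list, and a peak in all 4 untreated ones, at 27.1 to 53.5. In WT root its rank percent was 49.5 in the control and 97.8, 91.5 and 74.7 with ABA, and in seedling 49.1 and 94.1. By summit, PYL1 therefore had its 4 ABA values at 74.7 or above and its 7 values without ABA at 63.9 or below. Peaks that overlap its window with the summit elsewhere did not keep that gap. The best of them had 25.9 in the WT root control and 48.5, 47.0 and 40.2 with ABA, 22.7 and 67.2 in seedling, and 63.5, 90.4 and 58.8 in mutant root, where no ABA list had a summit in the window.

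PYL2 and PYL3 differed less. The best rank percent of PYL2 in guard cells, that of its site 2, was 13.5 in the control and 30.7 and 19.1 with ABA, while in WT root it was 27.9 and then 34.4, 30.2 and 32.9. PYL3 had 28.1, 28.4 and 26.3 in guard cells and 5.83, 14.0, 6.98 and 6.85 in WT root, in the order of the times given above. PYL3 had more covered bases in the ABA list in 6 of the 10 comparisons and lost no peak in any. In both WT guard cell ABA lists it had a peak at site 3 (chr1:27464236-27465070) that the control lacked, at a rank percent of 82.0 and 53.0, whose summit lay nearer to the phosphatase gene PS2.

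Subfamily I was split. PYL8 ranked lower with ABA in 9 of the 10 comparisons and had a lost peak in 8. In guard cells its rank percent was 14.1 in the control, 50.0 at 4 h and 36.6 at 24 h, and in mesophyll 30.6 and 71.9. These control values came from the upper-end site and the ABA values from the lower-end site. In the control lists the lower-end site of PYL8 had 17.9 in guard cells and 60.6 in mesophyll. The site near its upper-coordinate end had a peak in 7 of the 8 lists without ABA and in 2 of the 10 ABA lists, both from guard cells (24 h of ABA in WT at 52.2 and 4 h in the mutant at 56.5). In root its lower-end site had 36.8 in the WT control and 43.3, 52.4 and 36.8 with ABA, so the value at 2 h alone was more than 10 points away. The best peak overlapping the window in WT root, whose summit lay outside it, had 6.05 in the control and 15.9, 26.1 and 20.6 with ABA.

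PYL7 went the other way and ranked higher with ABA in 8 of the 10 comparisons. In seedling its rank percent was 41.9 in the control and 19.5 with ABA, and 95.7% of genes with a peak in both lists had a shift at least as far towards a lower rank. In WT root it was 27.0 in the control and 16.6, 11.1 and 11.2 at 45 min, 2 h and 4 h. In guard cells, where the peak was already among the strongest, it was 4.90, 3.33 and 5.83. Since the summit was never nearest to PYL7, these values describe the shared interval and not PYL7 alone. PYL9 ranked lower with ABA in 7 of the 9 comparisons with a peak in both lists, and higher in 2, WT root at 2 h and 4 h. Its rank percent in guard cells was 43.1 in the control, 81.2 at 4 h and 64.6 at 24 h, and in WT root 52.4 in the control and 68.3, 44.8 and 47.2. The root peaks at 2 h and 4 h lay at the lower-coordinate end of PYL9 (site 2, chr1:141355-142223), where the control had a peak at 91.5. At 45 min that site had 91.4. The other guard cell and root values of PYL9 given here came from site 3, which was never nearest to PYL9. In WT root site 3 had 54.5 and 52.6 at 2 h and 4 h.

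The abf1/2/3/4 mutant shows what the lists held where ABF1 to ABF4 are mutated. Without ABA, mutant and WT guard cells were close at the receptors, with counts near the shares of all genes. The median shift was 2.44 points, against 1.18 over all genes. All 10 had a peak in both lists, 0 had a gained or a lost peak, where 1.89% and 10.5% of genes did, and 1 of 10 (PYL3, 38.1 against 28.1) ranked lower by at least 10 points, where 11.9% of genes did. In root 3 of 10 ranked lower by as much, where 43.0% of genes did, and 2 (PYL8 and PYL9) had a lost peak, where 31.1% did, and 0 a gained one, where 2.07% did. The mutant root list was also shorter, with 19277 peaks against 25753, and among genes with a peak in all lists PYL7, the 1 such receptor past 10 points, had a shift of −0.56. Fewer covered bases were found for 8 receptors in the mutant root control and 6 in the mutant guard cell control, where 81.9% and 68.2% of genes had fewer.

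With ABA, the mutant guard cell list again lacked PYL1, and it lacked PYL6 as well. Covered bases over the receptors were 16407 in the mutant control and 11957 with ABA, a change of −27.1% against −1.53% for the whole list, beside −40.0% in WT at the same time. PYL5 had a rank percent of 1.80 in the mutant control and 25.3 with ABA, beside 1.35 and 23.2 in WT. PYR1 had 17.1 and 31.1, beside 15.7 and 51.7 in WT, and PYL8 had 15.3 and 26.4, beside 14.1 and 50.0. PYL5 thus differed by a similar number of points in both genotypes. For PYR1 and PYL8 the control values came from the upper-end site and the ABA values from the lower-end site. PYR1 had 32.9 and 31.1 at the lower-end site in the mutant, beside 24.2 and 51.7 in WT. At the upper-end site it had 17.1 and 76.1, beside 15.7 and 59.0. PYL8 had 23.3 and 26.4 at the lower-end site, beside 17.9 and 50.0. At the upper-end site PYL8 had 15.3 and 56.5, beside 14.1 and no peak in WT. For PYR1 the genotype with the larger difference thus depended on the site. The difference between genotypes has no replicate and was not tested.

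By count, 4 receptors of mutant guard cells had a lost and 2 a gained peak, where 11.0% and 6.66% of genes did. Among the 5000 highest-ranked peaks 0 had a lost peak, and within 500 bp of the genes coverage changed by −10.1%. Of 8 with a peak in both lists, 3 ranked lower by at least 10 points, where 18.4% of genes did, and 0 higher, where 14.2% did. The median shift was 6.57 points against 0.55 over all genes. Fewer covered bases were found for 8 of 10, where 53.4% of genes had fewer.

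In mutant roots the receptor windows held 15054 covered bases in the control and 8604 and 8161 at 45 min and 2 h of ABA. The changes of −42.8% and −45.8% stood against −5.60% and −10.9% for the whole lists, beside −39.8% and −33.7% in WT root at the times of the same name. At either time 5 receptors had a lost peak, where 9.19% and 13.2% of genes did, and 1 a gained peak, where 3.28% and 4.85% did. Within 500 bp of the genes 2 had a lost peak at either time, and coverage changed by −27.3% and −22.9%. Among the 5000 highest-ranked peaks 1 had a lost peak at either time. Receptors that ranked lower by at least 10 points were 4 and 3 of 9, where 14.9% and 17.5% of genes did. Those that ranked higher by as much were 0 at either time, where 4.66% and 6.83% of genes did. Fewer covered bases were found for 8 and 7 of 10, where 64.1% and 68.7% of genes had fewer.

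Among the members, PYL6 in mutant roots had a rank percent of 17.9 in the control, 60.3 at 45 min and 81.1 at 2 h, and it lost sites 1, 2 and 4 at both times. PYR1 had 8.13, 22.9 and 27.7 and PYL4 had 15.3, 35.1 and 31.9. At 45 min the WT values were 28.5 for PYR1 and 49.0 for PYL4. PYL5 had 0.420, 1.03 and 2.73. PYL7, which ranked higher with ABA in WT root, had 37.8 in the mutant control and 38.9 and 34.5 with ABA. That contrast between the genotypes was not tested, and the mutant group at 45 min has 2 samples where the WT group has 3.

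**Figure D5:**
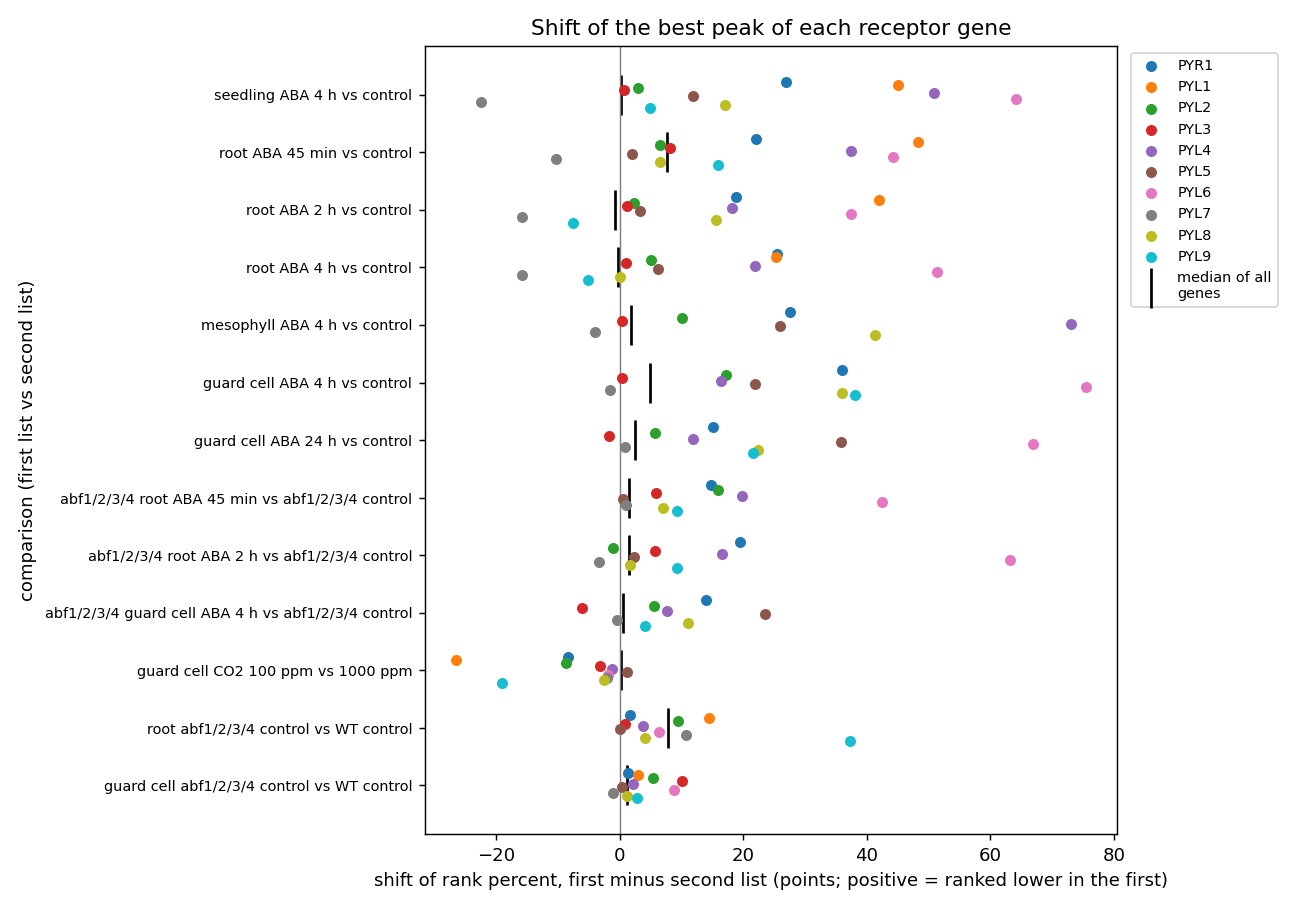
Shift of the best peak of each receptor gene in points of rank percent, first list minus second list, for the 13 comparisons (coloured points), with the median over all genes with a peak in both lists (black ticks). Points to the right of 0 ranked lower in the first list. PYL6 is far to the right, at 37.4 to 75.4, in the 8 ABA comparisons where both lists hold a peak, PYL7 is left of 0 in 8 of 10, and in the CO2 comparison 9 of 10 receptors lie left of 0.

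CO2 level was compared in WT guard cells after 4 h at 100 ppm, where stomata open, and at 1000 ppm, where they close. All 10 receptors had more covered bases at 100 ppm, where 53.3% of all genes had more. The sum was 20271 bp at 100 ppm and 15287 bp at 1000 ppm, a difference of 32.6% of the latter, beside 10.9% for the whole lists, although the 100 ppm list had fewer peaks (18999 against 19341). Gained peaks at 100 ppm were found for PYL3, PYL7 and PYL9, where 8.42% of genes had one, and lost peaks for 0 receptors, where 6.99% of genes had one.

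By rank, 9 of the 10 receptors ranked higher at 100 ppm than at 1000 ppm, where 48.0% of all genes did, and the exception was PYL5 (3.77 and 2.59). PYL1 had 27.1 at 100 ppm and 53.5 at 1000 ppm, and PYL9 had 41.4 and 60.4. These were the 2 receptors that ranked higher by at least 10 points, where 12.2% of genes did, and none ranked lower by as much, where 16.2% of genes did. The guard cell-specific site 2 of PYL2 had 8.38 and 17.1, and PYR1 had 15.3 and 23.6. The vehicle-sprayed guard cell control, with PYL1 at 38.7, PYL2 at 13.5 and PYR1 at 15.7, lay between both CO2 lists for PYL1, PYL2, PYR1 and PYL9 and outside them for the 6 other receptors. It is the vehicle control of the ABA series and not a control of the CO2 chambers.

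The other genes of the pathway were read in the same way. The 9 clade A PP2C genes, whose products the receptors inhibit, mostly ranked higher with ABA. In the 7 WT comparisons, 7 of 8 did so in seedling, 7 of 7, 7 of 8 and 6 of 8 in root at 45 min, 2 h and 4 h, 7 of 7 in mesophyll and 7 of 8 in guard cells at either time. Of all genes, 48.5% did so in seedling, 11.7%, 57.3% and 51.7% in root, 38.1% in mesophyll, and 30.8% and 35.8% in guard cells at 4 h and 24 h. The rank percent of HAI2, one of these phosphatases, was 7.98 in the seedling control and 0.616 with ABA, and 14.1 and 0.652 in mesophyll. In guard cells it was 3.09 in the control, 0.391 at 4 h and 0.951 at 24 h. ABI1 ranked lower in seedling and in root at 2 h and 4 h where the summit of its strongest overlapping peak lay outside the window. The best peak overlapping the window had a rank percent of 2.95 in the seedling control and 0.681 with ABA, and 2.23 in the root control and 1.93 and 0.984 at 2 h and 4 h. A gained peak was found for 6 of the 9 PP2C genes in seedling, 4, 5 and 7 in WT root at 45 min, 2 h and 4 h, 6 in mesophyll, and 1 and 2 in guard cells at 4 h and 24 h. A lost peak was found, in the same order, for 0, 3, 2, 1, 0, 3 and 1 of them. Of all genes, 8.65%, 1.49%, 19.3%, 17.0%, 7.13%, 6.79% and 6.02% had a gained peak in that order. A lost peak was held by 7.14%, 30.0%, 9.58%, 17.8%, 10.2%, 20.7% and 15.3% of all genes. In guard cells at 4 h the PP2C genes thus had more lost than gained peaks, as did all genes.

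In the mutant the PP2C genes that ranked higher were 5 of 7 and 3 of 7 in root at 45 min and 2 h, and 4 of 8 in guard cells, where 37.4%, 38.7% and 46.4% of all genes did. The counts at 2 h and in guard cells were thus near the share of all genes. HAI2 there had 10.2 in the root control and 6.78 and 8.77 with ABA, and 4.50 and 3.99 in guard cells. These are counts from single lists, and the difference between genotypes was not tested.

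The genes of ABF1 to ABF4 and ABI5, the transcription factors at the end of the pathway, all ranked higher with ABA in WT seedling (5 of 5) and in WT root at each time (5 of 5). In mesophyll 3 of 3 did, and in guard cells 4 of 5 at 4 h and 3 of 5 at 24 h, beside the shares of all genes given for the PP2C genes. ABF3 had a rank percent of 13.0 in the seedling control and 2.31 with ABA. The 3 SnRK2 genes had no such common direction, beside the same shares of all genes. Those that ranked higher with ABA were 1 of 2 in seedling and 1 of 2, 2 of 3 and 3 of 3 in WT root. In mesophyll 1 of 3 did, and in guard cells 0 of 3 at 4 h and 2 of 3 at 24 h. Among them OST1, the kinase that acts in guard cells, had a rank percent of 0.936 to 3.92 in the 7 guard cell lists and of 13.4 or above in all others. It was 80.0 in the seedling control and 27.3 with ABA. PYL10, the receptor of subfamily I outside the 10, had no peak in any list, and PYL11 to PYL13 had peaks in some or all lists. PYL13 had a rank percent of 34.4 in the guard cell control and 70.7 and 46.0 at 4 h and 24 h of ABA, and 60.1 and 52.6 in mesophyll without and with ABA.

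For the 3 receptors that lacked a peak in some list, the genes with the most similar pattern over the 18 lists were read off by Spearman's correlation of the best rank percent, with 100 where there was no peak. For PYL1 they were SCR, a root patterning factor (0.90), and THO1 (0.90). For PYL6 they were AT5G61590 and ERF104 (AT5G61600), and for PYL9 they were AT3G04750 (0.96) and AT5G45277 (0.96). The PYL6 pair had the same value (0.92) and adjacent locus numbers, and whether they share their peaks was not checked. These values describe the pattern across lists that differ in tissue, length and treatment at once.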

How the data were processed

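ATAC-seq peaks were analysed as deposited by the authors, in 18 lists of 1 per group. Genrich and the TAIR10 build are named in the submitters' processing notes. How samples were combined into a list, and the depth, are not given in the sources used here. Each peak of the deposited lists carries an area score, a score per base capped at 1000 and an uncorrected −log10 p. The q column is −1 throughout.

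Peaks were assigned to genes by summit (window 1500 bp) with the TAIR10.1 gene table of RefSeq, used for names and gene positions without strand. As a check of the build, 35.0 to 51.8% of a list's summits were at most 150 bp from the end of a gene, against 13.4 to 14.4% after a move of 5000 bp. Peaks sharing at least 1 base were joined into sites. Values were computed with Python 3.11.15, pandas 2.3.3, numpy 2.4.6 and scipy 1.17.1, after the steps were tested on simulated peaks.

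The 10 receptors, the pathway lists and the markers were chosen with earlier results of these data known. All 10 receptors are named. With 1 list per group there was no test, and the number of samples behind each list (2 to 4) gives no spread. Sequences are not shown.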

Additional observations from a re-analysis of the deposited data

How the results depend on the processing

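Of 420 alternative values of the counts and coverage changes, 356 stayed within 1.5 times the value reported and 64 did not. The cause of these differences was not tested. No paired analysis was possible because each group has 1 pooled list, and leaving out a replicate was not possible for the same reason. The number of receptors with a peak in a list stayed within 1.5 times in each alternative run. So did the number ranked lower by at least 10 points by area score, by nearest gene and by overlap. Ranking among genes with a peak in all lists covers 7 receptors, and there the count moved in 1 comparison, between root genotypes, from 1 to 0.

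Gained and lost counts were small and moved most. No share of all genes is given under these alternative rules, so the counts below have no background beside them. Among the 5000 highest-ranked peaks, 0 receptors had a gained peak in seedling, in WT root at each time, in guard cells at 4 h and 24 h, in mutant root at both times, in mutant guard cells and between CO2 levels. Lost peaks there were found for 3 receptors in mesophyll, 1 in seedling, 1 in guard cells at 4 h, 1 in mutant root at either time, and 0 in WT root at each time, in guard cells at 24 h, in mutant guard cells and between the root genotypes. With a window of 500 bp, 1 receptor had a lost peak in seedling, 2 in WT root at 45 min, 3 in mesophyll, 2 in guard cells at 4 h and 2 in mutant root at either time, and 0, 1 and 1 had a gained peak in WT root at 45 min, 2 h and 4 h. With 3000 bp, 5 had a lost peak in WT root at 4 h and 1 a gained peak in mesophyll.

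With peaks nearest to the receptor only, gained peaks were 0, 1 and 1 in WT root at 45 min, 2 h and 4 h, 1 and 0 in guard cells at 4 h and 24 h, and 1 between CO2 levels, and lost peaks were 3 in mutant root at either time. With the 15000 peaks of highest −log10 p in every list, gained peaks were 0 in WT root at 45 min, 1 in guard cells at 4 h, 0 in mutant root at either time, 1 in mutant guard cells and 1 between root genotypes, and lost peaks were 3 in mutant root at 45 min, 1 between CO2 levels and 1 between root genotypes. With the 15000 of highest area score, gained peaks were 1 in guard cells at 4 h, 0 in mutant root at either time, 1 in mutant guard cells and 1 between genotypes in root and in guard cells, and lost peaks were 3 in mutant root at either time, 1 between CO2 levels and 1 between root genotypes.

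Coverage was recomputed with alternatives chosen after seeing the data. Within 500 bp of the genes the change with ABA was −20.9% in WT root at 2 h, −27.3% and −22.9% in mutant root at 45 min and 2 h, and −10.1% in mutant guard cells. Of 432 recomputed shifts of single receptors, whose area-score, common-gene, nearest-gene and overlap rankings were also chosen after seeing the data, 64 moved by 10 points or more, and 2 of those reported at 10 points or more changed sign. PYL9 in WT root at 45 min had a shift of −0.11 with nearest-gene peaks only, and PYL7 between root genotypes had −0.56 when ranked among genes with a peak in all lists. Smaller shifts changed sign more often. Under that ranking 12 shifts reported at under 10 points did so, out of 91 shifts in all, and under the area score 9 did, under nearest gene 3 and under overlap 3. The direction of a shift below 10 points may thus depend on the ranking. Depth per list is unknown, so an absent peak is a peak not called and not a closed site.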
